A study of Mus musculus with 24 samples.

Results

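The type I interferon-stimulated genes are the antiviral genes that a cell switches on when interferon alpha or beta binds its receptor. A list of 54 of these genes was followed through RNA-seq of mouse blood monocytes. The genes were listed by name, mostly from the classical interferon-induced families, with no threshold on their values, but earlier results of these data were known when the list was made. All 54 were among the 53715 genes of the deposited table, and 53 of them reached a value of 50 in at least 1 of the 24 libraries and were tested together with the other genes that did so, 11230 in all. The exception was Ifi47, which was listed at 0 in every library but 1, the first N2ΔMy Sham library, where its value was 4.

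Monocytes were sorted from the blood of C57BL/6 mice aged 8 to 10 weeks, in 6 groups of 4 libraries. Wild type mice (wt) were compared with Notch2 mutants (N2ΔMy), in which Lyz2-Cre, expressed from the lysozyme M locus in myeloid cells, deletes floxed Notch2. Cells of both genotypes were sorted as lineage-negative CD11b+ CD115+ MHC-II- cells carrying the Cx3cr1 GFP reporter, where the lineage stain included Ly6G, a surface marker of neutrophils, and markers of T, B, NK and erythroid cells. Mice received a daily application of 50 mg Aldara, a cream with 5% imiquimod (IMQ, a TLR7 agonist), or Vaseline as Sham, on depilated skin for 4 to 5 days, and cells were sorted on day 5. Classical Ly6Chi monocytes were sorted from Sham and IMQ mice of both genotypes, and non-classical Ly6Clo monocytes from IMQ mice of both genotypes. Ly6Clo cells of Sham mice were not analysed here. The labels add "+A", read here as Aldara, to the IMQ libraries and describe a Sham cream as the alternative, whereas the study's RNA methods call the controls untreated. The labels do not say whether Ly6Chi and Ly6Clo libraries of the same number came from 1 mouse, or that every library came from a separate mouse, so that p-values measure the spread between these libraries.

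As background, interferon alpha and beta signal through the receptor chains Ifnar1 and Ifnar2 and the kinases Tyk2 and Jak1 to a complex that holds Stat2 and Irf9, called ISGF3. ISGF3 binds a short DNA element, the interferon-stimulated response element (ISRE), near the start of its target genes. The proteins made from these genes bind or degrade viral RNA, block viral assembly, modify other proteins or restrain the signal itself. In monocytes most of them are present at a low level without infection and rise within hours of interferon. IMQ acts on TLR7, which signals through Myd88 to NF-kappaB and, in some cells, through Irf7 to the interferon genes.

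Values are the authors' DESeq2-normalised counts, rounded to whole numbers and termed normalised values here. The library totals inferred from them lay between 9521379 and 19759572 reads, so that most members were well above the level of single reads. Notch2, the gene targeted in N2ΔMy mice, lay between 12656 and 20005 in the 12 wt libraries and between 7240 and 11518 in the 12 N2ΔMy libraries, without overlap, so that part of its transcript remained in N2ΔMy cells. The 9 Ly6Clo markers summed to between 88891 and 107439 in wt Ly6Clo libraries and to between 15504 and 27086 in wt Ly6Chi IMQ libraries, and the 7 Ly6Chi markers summed to between 4006 and 8122 and between 153726 and 196609 in the same groups. Markers of T and NK cells summed to at most 29 in any library, and the genes of the CD3 chains Cd3e and Cd3g were at 0 in every library.

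The start regions of the members were searched for the letters of the response element, a feature that the choice of the genes did not use. RefSeq start regions (GRCm38.p6, from 250 bases before to 50 bases after the start) were matched by symbol for 42 of the 54 members. The core of the ISRE, GAAANNGAAA, on either strand (TTTCNNTTTC on the other), was present in 20 of the 42, or 47.6%, against 3.99% of the 27025 genes of the RefSeq table and 4.07% of the 7744 tested genes in it. The gamma-activated site TTCNNNGAA, which reads the same on both strands and can overlap an ISRE match, was present in 7 of the 42, or 16.7%, against 9.55% of the RefSeq table. A match describes the letters only and is not evidence of binding. The stretches below are of some of the members with a match. Members without one (such as Ifit2, Oasl2, Samd9l and Helz2) or without a matched start region (such as Usp18, Oas2 and Zbp1) are not shown. A single match in each is in capitals, although the stretches of Ifit1, Isg15, Oas1a and Oas1g hold further matches that are not marked. Each stretch is read 5′ to 3′ on the strand of the gene and ends before its RefSeq start. For Slfn5 this start lies inside the gene as annotated for the deposited table, where Slfn5 begins at position 82951349, so that its stretch does not lie before the annotated gene.
Ifit1 (chr19:34640779-34640838, plus strand): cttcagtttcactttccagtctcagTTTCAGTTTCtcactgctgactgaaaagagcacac
Ifit3 (chr19:34583348-34583407, plus strand): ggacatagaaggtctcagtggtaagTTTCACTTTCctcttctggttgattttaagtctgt
Ifit3b (chr19:34607744-34607803, plus strand): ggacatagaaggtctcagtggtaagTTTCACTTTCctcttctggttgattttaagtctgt
Rsad2 (chr12:26456538-26456597, minus strand): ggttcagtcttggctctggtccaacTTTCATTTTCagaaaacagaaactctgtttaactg
Isg15 (chr4:156200856-156200915, minus strand): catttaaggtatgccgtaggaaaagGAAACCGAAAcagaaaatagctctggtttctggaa
Oas1a (chr5:120907526-120907570, minus strand): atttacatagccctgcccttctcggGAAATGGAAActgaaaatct
Oas1g (chr5:120887614-120887656, minus strand): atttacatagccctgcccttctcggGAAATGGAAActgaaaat
Stat2 (chr10:128270251-128270310, plus strand): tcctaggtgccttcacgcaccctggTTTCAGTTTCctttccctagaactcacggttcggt
Slfn5 (chr11:82951922-82951981, plus strand): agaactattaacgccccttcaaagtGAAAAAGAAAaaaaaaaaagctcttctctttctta
Ddx60 (chr8:61928009-61928068, plus strand): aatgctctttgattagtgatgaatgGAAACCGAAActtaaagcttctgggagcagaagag

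Ifit3 and Ifit3b, neighbouring copies on chromosome 19, carried the same letters over the whole stretch, and Oas1a and Oas1g on chromosome 5 over every letter printed for Oas1g. Several families lie in 1 cluster each, the 4 Ifit members within 99.3 kb of chromosome 19 (chr19:34550694-34650009), the 4 Oas members within 177.2 kb of chromosome 5, the 3 Slfn members within 171.3 kb of chromosome 11 and the 3 p200 members within 376.4 kb of chromosome 1 (GRCm38). Reads of such near copies can be assigned to the wrong member, so that values of Ifit3 and Ifit3b, of Oas1a and Oas1g, of the Slfn, p200 and Phf11 members are uncertain individually. The strand setting of the counting is not given in the sources used here, and exons of Parp9 and Dtx3l, of Adar and Chrnb2, and of Eif2ak2 and Gm26637 overlap on opposite strands, so that their reads may be shared.

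The members differed widely in level. On the scale of mean normalised value per kb of exon in wt Sham libraries, the highest level was that of Ifi27l2a, a small membrane protein, at 7114. It was followed by Epsti1 at 2571, the DNA-binding p200 protein Ifi204 at 1761, the TRIM protein Trim30a at 1175 and the nuclear body protein Sp100 at 1166. The lowest levels among the 53 tested members were those of Phf11d at 46.7 and Slfn8 at 55.7.

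Averaged over the 54 members on the log2(value + 1) scale, the 4 wt Sham Ly6Chi libraries lay between 10.32 and 10.45, and the 4 wt IMQ Ly6Chi libraries between 8.49 and 9.34. The corresponding N2ΔMy libraries lay between 10.10 and 10.53 for Sham and between 8.46 and 9.41 for IMQ. In Ly6Clo cells of IMQ mice the means were lowest, between 7.85 and 8.35 in wt and between 7.92 and 8.60 in N2ΔMy libraries. Sham libraries therefore did not overlap with IMQ libraries in either genotype, whereas the wt and N2ΔMy ranges overlapped in each of the 3 pairs of groups. The members held 0.933% of all normalised values in wt Sham, 0.401% in wt IMQ Ly6Chi and 0.286% in wt IMQ Ly6Clo cells, on average over 4 libraries. In N2ΔMy cells the corresponding shares were 0.888%, 0.387% and 0.287%. In bulk samples, fewer cells expressing a gene and less RNA of it per cell cannot be told apart.

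**Figure D1:**
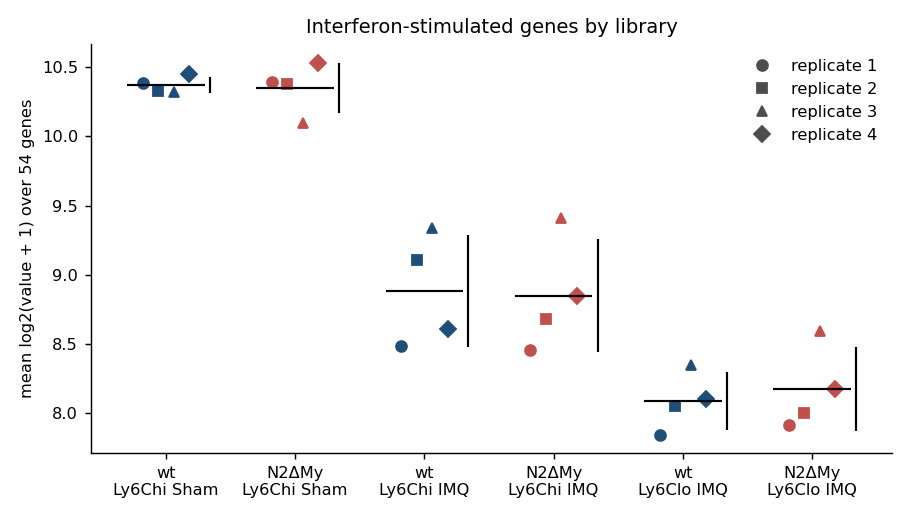
Mean of log2(normalised value + 1) over the 54 interferon-stimulated genes (y axis) in each of the 24 libraries, by group (x axis). Symbols mark replicates 1 to 4, the line is the mean of the 4 libraries and the bar is the SD. Sham libraries lie at 10.10 or above and IMQ libraries at 9.41 or below.

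The first comparison asked how the genes differed in Ly6Chi monocytes after IMQ. In wt mice 43 of the 53 members fell and 0 rose after IMQ, where a call means an adjusted p up to 0.05 together with a log2 fold change of 0.6 or more in size (limma, Benjamini-Hochberg over all genes tested). Of all genes tested, 5.07% were called lower and 4.43% higher. All 53 members had a log2 fold change below 0, where 51.5% of all genes had one above 0, with a median of -1.36 against 0.01 for all genes, and in 46 of the 53 every IMQ library was below every Sham library, which held for 11.5% of all genes. In N2ΔMy mice 45 of the 53 fell and 0 rose, against 4.55% of all genes called lower and 4.15% called higher. The median there was -1.33. In N2ΔMy cells 45 members were lower without overlap, against 9.64% of all genes, and all 53 were below 0, where 50.6% of all genes were above it. Within each of the 2 series of library numbers the median was -1.43 and -1.34 in wt, and -1.59 and -1.16 in N2ΔMy cells. All counts here are of members that passed the filter on low values, and no member passed it in Sham groups only.

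The IFIT proteins, which bind viral RNA that lacks the marks of host messages, had the largest median decrease of the 10 role groups. All 4 members fell in both genotypes, with a median log2 fold change of -3.42 in wt cells. Ifit3 was at 1323, 1276, 1065 and 1365 in the wt Sham libraries and at 44, 158, 168 and 49 in the wt IMQ libraries. In N2ΔMy cells Ifit3 was at 1359, 1455, 857 and 1534 after Sham and at 58, 50, 223 and 100 after IMQ. The highest IMQ library was thus well below the lowest Sham library, and Ifit3 was 14.2-fold lower in wt cells (log2 fold change -3.83, SE 0.41, adjusted p = 0.000233) and 14.0-fold lower in N2ΔMy cells (-3.81, SE 0.41, adjusted p = 0.000320). Its near copy Ifit3b went from 378, 352, 348 and 398 to 9, 57, 41 and 7 in wt cells, which was a change on the log2 scale of -4.14 (SE 0.57, adjusted p = 0.000848). Ifit2, the member of the family with the highest values, was at 2503, 2623, 1974 and 1747 after Sham and at 179, 644, 386 and 118 after IMQ in wt cells, which was a change on the log2 scale of -3.01 (SE 0.43). Its start region held no ISRE match. Ifit1 was at 710, 840, 1006 and 991 after Sham and at 79, 265, 261 and 121 after IMQ, a log2 fold change of -2.45 (SE 0.35).

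Among the other direct antiviral effectors 7 of the 8 tested members fell in each genotype. Rsad2 (viperin), which makes a nucleotide that stops viral RNA synthesis, was at 938, 929, 754 and 937 in wt Sham libraries and at 29, 227, 100 and 66 in wt IMQ libraries. It fell by 3.43 on the log2 scale in wt (SE 0.47, adjusted p = 0.000879) and by 3.51 in N2ΔMy cells (SE 0.34, adjusted p = 0.000195). Slfn5, the member of this group with the highest values, was at 7205, 6891, 4030 and 4378 after Sham and at 1912, 2884, 1855 and 1213 after IMQ. Its libraries 1 and 2 were higher than libraries 3 and 4 after Sham, but both pairs were lower after IMQ, a log2 fold change of -1.53 (SE 0.26). Bst2 (tetherin), which holds budding virus on the cell surface, fell with a log2 fold change of -1.58, Samd9l with -1.67, the exonuclease Isg20 with -1.55 and the nucleotide kinase Cmpk2, the neighbour of Rsad2, with -1.50. Slfn1 was not called in wt cells (-1.33, SE 0.78, adjusted p = 0.296), where its Sham values were 102, 149, 600 and 529, but it was called with the replicate number in the model (adjusted p = 0.000266).

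The ISG15 group is built around a ubiquitin-like protein that is attached to other proteins and removed again. Of its 4 members 3 fell in both genotypes. Usp18, the protease that removes ISG15 and also dampens signalling at Ifnar2, was at 1341, 1470, 1099 and 1309 after Sham and at 169, 385, 333 and 170 after IMQ in wt cells. This was 5.25-fold lower (log2 fold change -2.39, SE 0.26, adjusted p = 0.000253). Isg15 itself was at 441, 349, 275 and 338 after Sham and at 53, 144, 106 and 54 after IMQ, a log2 fold change of -2.07 (SE 0.31). The ligase Herc6 fell with a log2 fold change of -1.32. Trim25, the ubiquitin ligase that activates RIG-I, was not called, at a mean of 3501 after Sham and 2894 after IMQ in wt cells (-0.27, SE 0.09, adjusted p = 0.0631) and with a log2 fold change of -0.02 (SE 0.13) in N2ΔMy cells.

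Both Mx GTPases, which trap viral nucleocapsids, fell. Mx1 was at 3499, 3225, 3154 and 2523 in wt Sham libraries and at 775, 1063, 1025 and 408 in wt IMQ libraries. All IMQ values were below the lowest Sham value, with a log2 fold change of -2.01 (SE 0.26). Mx2 fell by 2.03 on the log2 scale in wt and by 2.30 in N2ΔMy cells. The active oligoadenylate synthetases make a product that activates the RNA-degrading enzyme RNase L, and the family also holds OAS-like proteins such as Oasl1 that lack this activity. Of its 6 members 5 fell in both genotypes. Oasl2, the member of this family with the highest values, was at 5611, 4506, 3350 and 4266 after Sham and at 497, 1437, 1383 and 714 after IMQ in wt cells. Its log2 fold change was -2.25 (SE 0.31), that of Oasl1 was -1.81, that of Oas3 was -1.52 and that of Oas2 was -1.32. Oas1a fell less (-0.90, SE 0.14), and Oas1g was not called, at 298, 219, 193 and 221 after Sham and at 170, 294, 255 and 177 after IMQ (-0.08, SE 0.21, adjusted p = 0.858), although the letters printed for the start regions of Oas1a and Oas1g are the same.

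Among the 8 RNA and DNA sensors and RNA-dependent enzymes 7 fell in both genotypes, with a median log2 fold change of -1.13 in wt cells. The cytosolic RNA sensors Ddx58 (RIG-I), Ifih1 (MDA5) and Dhx58 (LGP2) fell with log2 fold changes of -1.52, -1.11 and -1.15 in wt cells. Ddx60, a helicase linked to RIG-I, fell with -1.55, and the RNA-activated kinase Eif2ak2 (PKR) with -1.15. Adar, the RNA-editing enzyme with the highest values of the group, was at 4775, 4120, 3977 and 3681 after Sham and at 2563, 2710, 2315 and 1884 after IMQ, a log2 fold change of -0.81 (SE 0.12). Zbp1, which senses nucleic acids in the Z form and can trigger necroptosis, was at 3367, 2682, 3131 and 3493 after Sham and at 1356, 1950, 2363 and 1786 after IMQ, a log2 fold change of -0.79 (SE 0.15). The mitochondrial RNA exonuclease Pnpt1 had a smaller difference that passed the adjusted p but not the fold (-0.47, adjusted p = 0.0129).

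In each of the remaining groups most members fell as well. Of the ADP-ribosylation complex, Parp14 fell from 9190, 8930, 7889 and 8091 to 3546, 4192, 3358 and 2319 in wt cells (log2 fold change -1.37, SE 0.15), and Parp9 fell by 0.70, whereas its partner Dtx3l did not reach the fold (-0.43, adjusted p = 0.0288). Of the p200 family, which binds DNA in the cytosol and nucleus, Ifi204 fell from 6089, 6105, 6452 and 6443 to 1832, 1850, 3402 and 2386 (-1.45, SE 0.17), and Ifi203 fell by 1.36. Ifi213 was at 1329, 606, 1186 and 1198 after Sham and at 111, 0, 771 and 135 after IMQ, was not called in wt cells (-4.14, SE 1.56, adjusted p = 0.102) and was called with the replicate number in the model (adjusted p = 0.00751). In N2ΔMy cells, where no library was at 0, Ifi213 fell by 2.55 on the log2 scale (SE 0.49, adjusted p = 0.00691). Among the 8 transcription factors and nuclear or signalling regulators, 6 fell in wt and 7 in N2ΔMy cells. Stat2, a subunit of ISGF3, was at 4371, 4141, 4013 and 3749 after Sham and at 1245, 1592, 1476 and 955 after IMQ (-1.65, SE 0.14, adjusted p = 8.9e-05). Sp100 fell from 8455, 7958, 9177 and 9642 to 3499, 4403, 5481 and 4379 (-1.0, SE 0.13). The partners Nmi and Ifi35 had log2 fold changes of -0.43 and -0.76, of which that of Ifi35 was called. Of the 7 other induced proteins 5 fell in each genotype, among them Rtp4, a chaperone of membrane proteins, from 1026, 951, 1061 and 1239 to 86, 278, 328 and 131 (-2.56, SE 0.36), and Epsti1 from 4825, 4940, 6974 and 7134 to 2481, 3233, 4512 and 3631 (-0.79, SE 0.19). Ifi44 was not called and differed widely within the Sham group, at 170, 818, 58 and 1363.

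With the replicate number in the model, 47 members were called lower in each genotype, against 6.03% of all genes in wt and 5.13% in N2ΔMy cells. In wt cells the 4 members added were Ifi213, Slfn1, Ifi27l2a and Phf11d. The members with an ISRE match had a median log2 fold change of -1.53 in wt cells (20 tested, 18 called lower), and those without one a median of -1.0 (21 tested, 14 called lower). The ranges of these 2 sets overlapped, from -4.14 to -0.08 and from -3.01 to -0.06. Markers of other cells also differed between Sham and IMQ Ly6Chi libraries. The 9 neutrophil markers summed to between 1 and 63 after Sham, where none reached 50, and between 963 and 5241 after IMQ, where 2 reached 50 in each genotype. The granule genes Camp and Ngp were at 0 in every Sham library, and Camp also in every wt IMQ library. Ly6g went the other way, above 0 in at least 1 Sham library of each genotype and at 0 in every IMQ library. The 6 conventional dendritic cell markers summed to between 823 and 1686 after Sham and between 270 and 529 after IMQ. Of these, 3 reached 50 in a Sham library of each genotype, and after IMQ 2 did in wt and 1 in N2ΔMy cells. Ccr7 and Xcr1 were at 0 in every Sham library and went the other way, with Xcr1 above 0 in an IMQ library of each genotype and Ccr7 in wt. The 6 plasmacytoid dendritic cell markers, of which 1 reached 50, summed to between 1606 and 1929 in wt Sham and between 1307 and 1448 in wt IMQ libraries, with Klk1 and Pacsin1 at 0 in both, and the N2ΔMy ranges overlapped (1486 to 1739 and 961 to 1498). In N2ΔMy cells the 8 macrophage markers went from between 3878 and 4426 to between 4612 and 6108 (2 and 3 reached 50, Timd4 at 0 in both), the 7 Ly6Chi markers from between 167962 and 190720 to between 215873 and 265503, and the 5 platelet markers from between 27 and 53 to between 74 and 130, whereas the wt ranges of these 3 lists overlapped. The sort gated out cells with Ly6G or with MHC-II, which dendritic cells carry. Whether neutrophils or dendritic cells were among the sorted cells, and the part of the listed cell types in the results, was not tested.

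**Figure D2:**
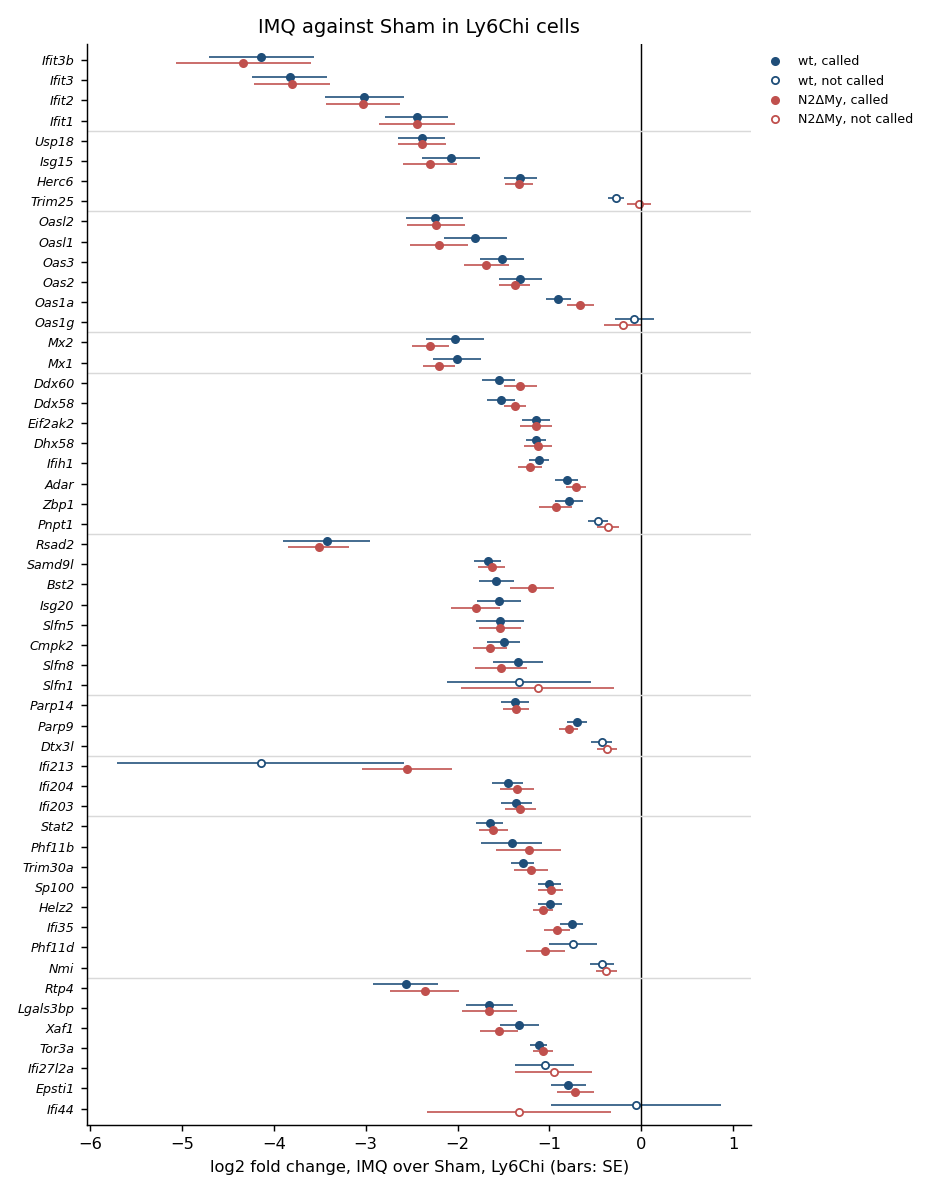
Log2 fold change, IMQ over Sham, of the 53 tested interferon-stimulated genes in Ly6Chi monocytes of wt (blue) and N2ΔMy mice (red), ordered by role group. Bars are the standard error of the fit and filled points were called. All points lie below 0, with 43 called lower in wt and 45 in N2ΔMy cells.

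**Figure D3:**
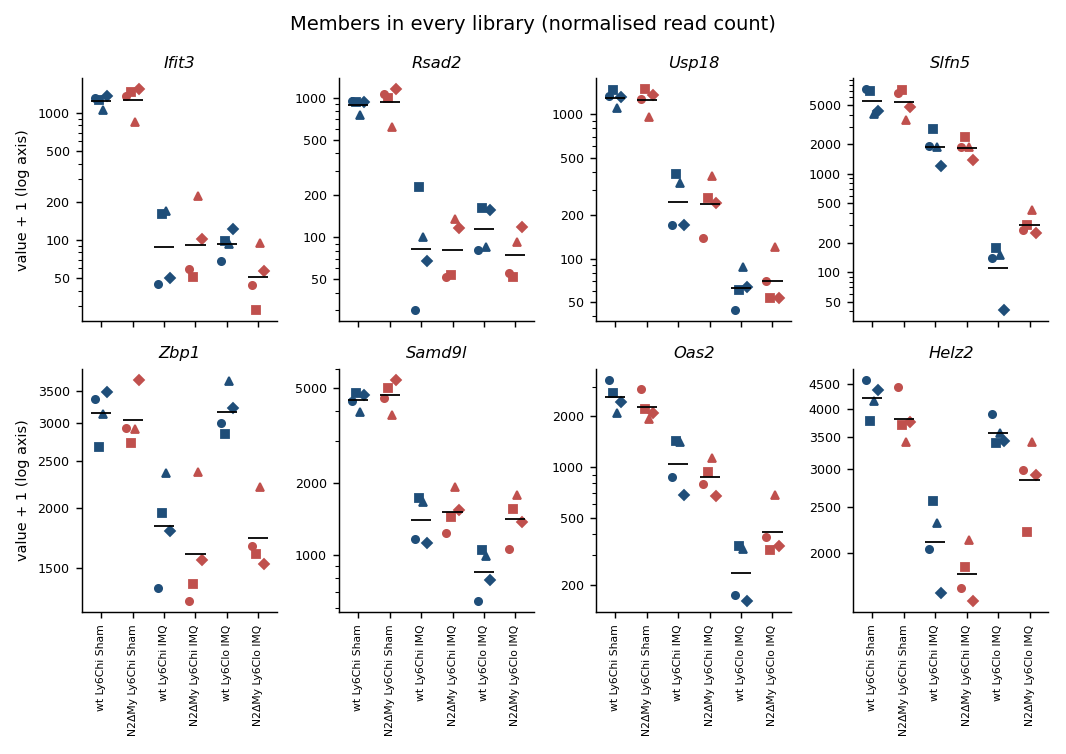
Normalised value + 1 (log axis) of 8 interferon-stimulated genes in each library of the 6 groups, with the geometric mean of 4 libraries as a line (wt in blue, N2ΔMy in red, with circles, squares, triangles and diamonds for replicates 1 to 4). Ifit3, Rsad2 and Usp18 are low in every IMQ library, Slfn5 and Oas2 are lower in Ly6Clo than in Ly6Chi IMQ libraries, and Zbp1 and Helz2 are higher in wt Ly6Clo than in wt Ly6Chi IMQ libraries.

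The other genes of the pathway were taken from lists of receptors, kinases, transcription factors, feedback inhibitors and TLR7 signalling proteins. None of the 7 receptor and kinase genes was called between IMQ and Sham in either genotype. Ifnar1 was at 2605, 2421, 2236 and 2030 in wt Sham libraries and at 1968, 1906, 1977 and 1928 in wt IMQ libraries, a log2 fold change of -0.25 (SE 0.09, adjusted p = 0.0789). In N2ΔMy cells the log2 fold change of Ifnar1 was -0.40 (SE 0.10, adjusted p = 0.0224), which passed the adjusted p but not the fold, and in both genotypes its IMQ libraries lay below all Sham libraries. Ifnar2 had a log2 fold change of -0.19 in wt (SE 0.13) and of -0.27 in N2ΔMy cells (SE 0.21). Of 7 genes of ISGF3 and the interferon regulatory factors, Irf7 was called in both genotypes and the other 6 were not. Irf7, which drives the interferon alpha genes, was at 6588, 5730, 6335 and 6392 after Sham and at 1186, 2461, 2411 and 1274 after IMQ in wt cells (-1.85, SE 0.23, adjusted p = 0.000454). Irf9, the DNA-binding subunit of ISGF3, differed by less (-0.48 in wt and -0.47 in N2ΔMy cells) and did not reach the fold.

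The feedback inhibitors of cytokine signalling went in both directions. Socs3 rose from 783, 816, 659 and 959 to 2010, 2419, 1912 and 3056 in wt cells (log2 fold change 1.53, SE 0.16, adjusted p = 0.000194), and by 1.61 in N2ΔMy cells. Socs1 fell from 35, 40, 18 and 38 to 14, 9, 10 and 6 in wt cells (-1.64, SE 0.41, adjusted p = 0.0206), at values near the lower end of the data. None of these values reached the filter of 50. Socs1 passed it in the N2ΔMy Sham group, at a mean of 49.5 against 10 after IMQ, so that its fall is not independent of the filter. Of the 10 genes of the TLR7 signalling chain, the kinase gene Ikbke was the called one, higher after IMQ by 1.05 in wt and 0.86 in N2ΔMy cells. Tlr7 itself was not called, at 2879, 3032, 3126 and 2932 after Sham and at 2320, 2978, 2997 and 3349 after IMQ (-0.05, SE 0.11). Of 11 genes associated mainly with interferon gamma, 8 fell in wt and 7 in N2ΔMy cells. Among them were the chemokine gene Cxcl10 (-3.61 and -3.62), the MHC class II activator Ciita (-1.46 and -1.73) and the GTPases Igtp (-1.20 and -1.27), Irgm1 (-1.11 and -1.41), Irgm2 (-0.95 in both), Gbp5 (-1.05 and -0.94) and Gbp7 (-1.19 and -0.72), with Gbp3 called in wt cells (-0.76). Cxcl10 was near the floor after IMQ, at means of 14.5 in wt and 16.75 in N2ΔMy cells, against 166.25 and 196.25 after Sham. Of the 10 NF-kappaB feedback and cytokine genes Tnfaip3 fell (-1.05 and -1.09) and the others were not called. With the replicate number in the model, Il1b (-0.82, adjusted p = 0.0247) and Gbp4 (-1.15, adjusted p = 0.0235) were also called lower in wt and Gbp2 (-0.61, adjusted p = 0.0381) in N2ΔMy cells. Of the 11 interferon genes none reached a value of 50, and Ifnb1 was at 3 and 1 in 2 N2ΔMy Sham libraries and at 0 in the other 22.

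**Figure D4:**
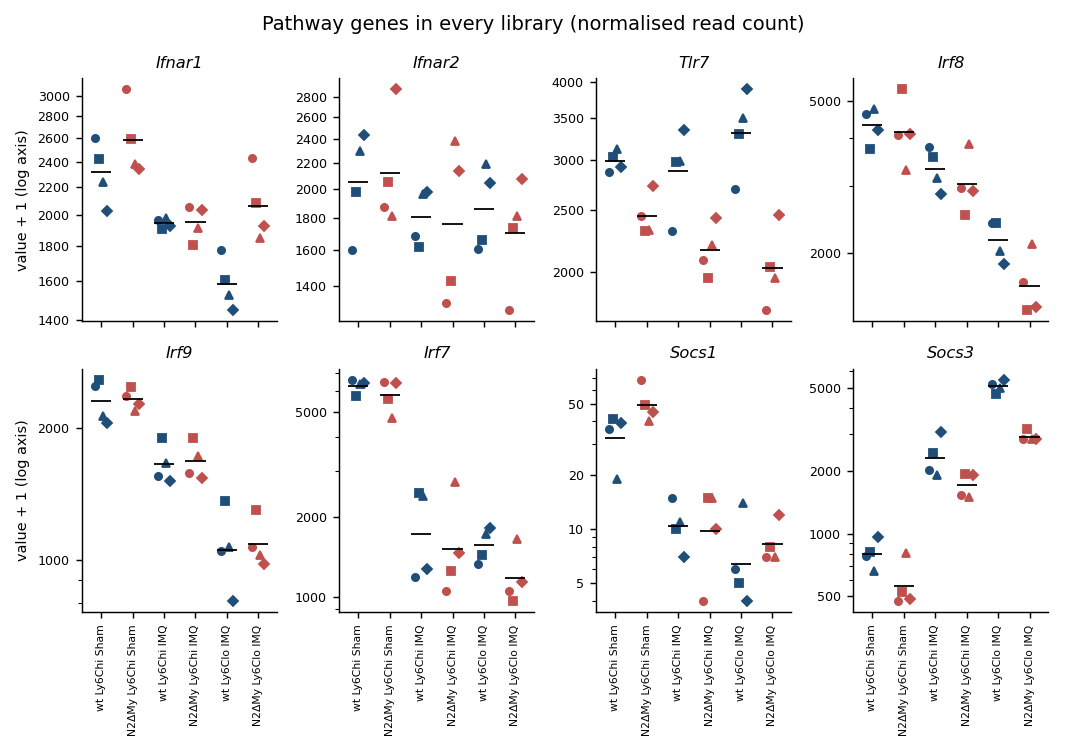
Normalised value + 1 (log axis) of 8 pathway genes in each library of the 6 groups, with the geometric mean of 4 libraries as a line (wt in blue, N2ΔMy in red, with circles, squares, triangles and diamonds for replicates 1 to 4). Irf7 and Socs1 are lower and Socs3 is higher in IMQ than in Sham libraries of Ly6Chi cells, and Ifnar2 overlaps between Sham and IMQ.

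The next question was whether loss of Notch2 changed the response of the Ly6Chi cells. For the difference between the genotypes in the IMQ effect, 0 of the 53 members and 0 of all 11230 genes were called (limma), that is 0% of all genes, and 0 members and 177 genes (1.58%) had an unadjusted p under 0.05. The difference between the log2 fold changes was 0.02 for Ifit3 (SE 0.64), N2ΔMy minus wt, and its median over the members was 0.01. The 2 series of library numbers went in opposite directions, with 12 and 41 of the 53 members above 0, medians of -0.20 and 0.17, and medians over the 4 IFIT genes of -0.91 and 0.92. A missing call does not show that the genotypes respond alike. In IMQ Ly6Chi cells 0 members were called between N2ΔMy and wt, against 0.0267% of all genes, and 0 members had an unadjusted p under 0.05, against 6.05% of all genes. In Sham Ly6Chi cells 0 members were called, against 0.0178% of all genes, and 1 member had an unadjusted p under 0.05, against 5.21% of all genes. This was Mx2, at 874, 927, 806 and 737 in wt and at 719, 709, 547 and 722 in N2ΔMy libraries (-0.31, SE 0.12, adjusted p = 0.921).

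Within IMQ mice, members were more often called lower than higher in Ly6Clo compared with Ly6Chi monocytes. In wt mice 28 members were called lower and 4 higher in Ly6Clo cells, against 12.7% and 11.9% of all genes, and the median log2 fold change of the members was -0.72 against -0.01 for all genes. In N2ΔMy mice 18 were called lower and 1 higher, against 8.38% and 9.01% of all genes, with a median of -0.64. With the replicate number in the model, the N2ΔMy counts were 29 lower and 2 higher, and those of all genes 10.2% and 10.3%. Without the filter on low values, 18 members were called lower and 3 higher in wt mice, and 5 lower and 0 higher in N2ΔMy mice. The shares of all genes above are of genes that passed the filter and do not apply to these counts. The Ly6Chi IMQ libraries of this comparison are also those compared with Sham. Markers of other cells differed between the subsets as well. The 9 neutrophil markers, of which at most 3 reached 50 in a group, summed to between 963 and 5241 in Ly6Chi and to between 15 and 282 in Ly6Clo libraries of IMQ mice, with Ly6g at 0 in all of them. The 8 macrophage markers summed to between 2883 and 3912 in wt Ly6Chi and between 4690 and 6688 in wt Ly6Clo libraries, where 2 and 3 of them reached 50 and Vcam1 was at 0 in both. In N2ΔMy mice they summed to between 4612 and 6108 in Ly6Chi libraries (3 reached 50, Timd4 and Vcam1 at 0) and between 11011 and 14724 in Ly6Clo libraries (6 reached 50, Timd4 at 0). Their part in the differences between the subsets was not tested.

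All 6 oligoadenylate synthetase family members were lower in Ly6Clo than in Ly6Chi cells of wt mice and 5 of them in N2ΔMy mice. Oas2 was at 874, 1436, 1402 and 685 in wt Ly6Chi libraries and at 172, 338, 325 and 160 in wt Ly6Clo libraries, a log2 fold change of -2.15 (SE 0.30, adjusted p = 0.000284). Oasl2 was at 497, 1437, 1383 and 714 against 137, 214, 260 and 232 (-2.15, SE 0.33). In N2ΔMy mice Oasl2 was at 534, 937, 1642 and 697 against 131, 223, 381 and 248 (-1.92, SE 0.36), and Oas3 at 843, 1030, 2053 and 959 against 261, 352, 659 and 356 (-1.57, SE 0.31). In each of these comparisons the Ly6Clo and Ly6Chi values did not overlap. Both Mx genes were also called lower in both genotypes, with Mx2 at 206, 303, 295 and 93 against 22, 58, 53 and 27 in wt cells (-2.43, SE 0.42).

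Slfn5 had the largest difference between the subsets of any member. It was at 1912, 2884, 1855 and 1213 in wt Ly6Chi libraries and at 139, 175, 150 and 40 in wt Ly6Clo libraries (log2 fold change -4.08, SE 0.42, adjusted p = 3e-05). In N2ΔMy mice it was at 1875, 2359, 1881 and 1371 against 268, 302, 423 and 246 (-2.60, SE 0.19, adjusted p = 5e-06). Each Ly6Clo library was thus below every Ly6Chi library. Slfn1 was at 27, 62, 279 and 249 against 4, 5, 41 and 39 in wt cells (-2.82, SE 0.90, adjusted p = 0.0316), with libraries 1 and 2 low in both subsets. Without Ly6Clo replicate 1 or 2, or Ly6Chi replicate 3 or 4, the adjusted p of Slfn1 lay between 0.0844 and 0.0892. Usp18 was at 169, 385, 333 and 170 in wt Ly6Chi libraries and at 43, 60, 86 and 63 in wt Ly6Clo libraries (-1.99, SE 0.31), and in N2ΔMy mice it was also lower (-1.77, SE 0.34). Isg15 in N2ΔMy mice was at 53, 70, 119 and 66 against 22, 9, 38 and 26 (-1.75, SE 0.43). Ifi213 in N2ΔMy mice, at 113, 103, 638 and 191 against 24, 24, 139 and 71, was called by a narrow margin (-1.96, SE 0.66, adjusted p = 0.0496), and the call was lost without Ly6Clo replicate 1, 2 or 4 or Ly6Chi replicate 3 or 4 (adjusted p between 0.0686 and 0.129).

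Not all members that fell after IMQ were lower in Ly6Clo cells. The 4 members called higher in wt Ly6Clo than Ly6Chi cells were Phf11b, Ddx60, Zbp1 and Helz2. Zbp1 was at 1356, 1950, 2363 and 1786 in wt Ly6Chi and at 3003, 2851, 3670 and 3224 in wt Ly6Clo libraries (0.80, SE 0.15, adjusted p = 0.00227). Helz2, a helicase that acts as a nuclear co-activator, was at 2041, 2566, 2309 and 1650 against 3898, 3397, 3556 and 3426 (0.75, SE 0.13, adjusted p = 0.000983). In both genes all Ly6Clo libraries were above all Ly6Chi libraries. Ddx60 was at 187, 231, 237 and 134 against 335, 404, 311 and 310 (0.81, SE 0.19), and Phf11b, a PHD finger protein, at 152, 353, 525 and 331 against 478, 606, 790 and 1003 (1.15, SE 0.34, adjusted p = 0.022). The Phf11b call was lost without Ly6Clo replicate 3 (adjusted p = 0.0531) or 4 (adjusted p = 0.0625). In N2ΔMy cells Helz2 was called (0.65, SE 0.14), at 1692, 1872, 2125 and 1591 against 2973, 2214, 3411 and 2912, with a log2 fold change below 0.6 without Ly6Clo replicate 3 (0.56) or Ly6Chi replicate 4 (0.59). Zbp1 was not called there, at 1278, 1382, 2373 and 1551 against 1662, 1598, 2210 and 1524 (0.12, SE 0.19). Ddx60 was not called in N2ΔMy cells either, at 152, 193, 167 and 213 against 242, 220, 258 and 255 (0.43). Phf11b, at 211, 303, 841 and 457 against 394, 564, 1236 and 720 (0.75), was called in N2ΔMy cells only with the replicate number in the model.

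Some calls of the IFIT genes between the subsets depended on the replicate number, whereas Ifit3b and Rsad2 were not called in either genotype with or without it. Ifit3 was at 44, 158, 168 and 49 in wt Ly6Chi and at 67, 97, 92 and 121 in wt Ly6Clo libraries (0.08, SE 0.44, adjusted p = 0.904), and Rsad2 at 29, 227, 100 and 66 against 80, 160, 84 and 156 (0.48, SE 0.52, adjusted p = 0.519). The groups overlapped for both genes. Without the replicate number, Ifit1 was the IFIT gene called lower in wt Ly6Clo cells (-1.40, SE 0.45, adjusted p = 0.0312), and 0 of the 4 were called in N2ΔMy mice. With it, Ifit1 (adjusted p = 0.000307) and Ifit2 (-0.68, adjusted p = 0.024) were called lower in wt mice. In N2ΔMy mice Ifit1 (-1.52, adjusted p = 0.000431), Ifit2 (-0.77, adjusted p = 0.00928) and Ifit3 (-0.84, adjusted p = 0.0201) were then called lower. None of the 3 members of the ADP-ribosylation complex was called in either genotype, with Parp14 at 3546, 4192, 3358 and 2319 in wt Ly6Chi and at 3133, 3078, 3013 and 2118 in wt Ly6Clo libraries (-0.23, SE 0.18). Taking the 3 group means in order, 43 of the 53 members in wt mice went from Sham Ly6Chi over IMQ Ly6Chi down to IMQ Ly6Clo, against 21.1% of all genes, and 46 in N2ΔMy mice, against 19.6% of all genes. Zbp1 in wt mice was the exception to Sham being highest, with a mean of 3187 in Ly6Clo cells and of 3168 in Sham Ly6Chi cells, which differed by less than the spread between replicates.

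**Figure D5:**
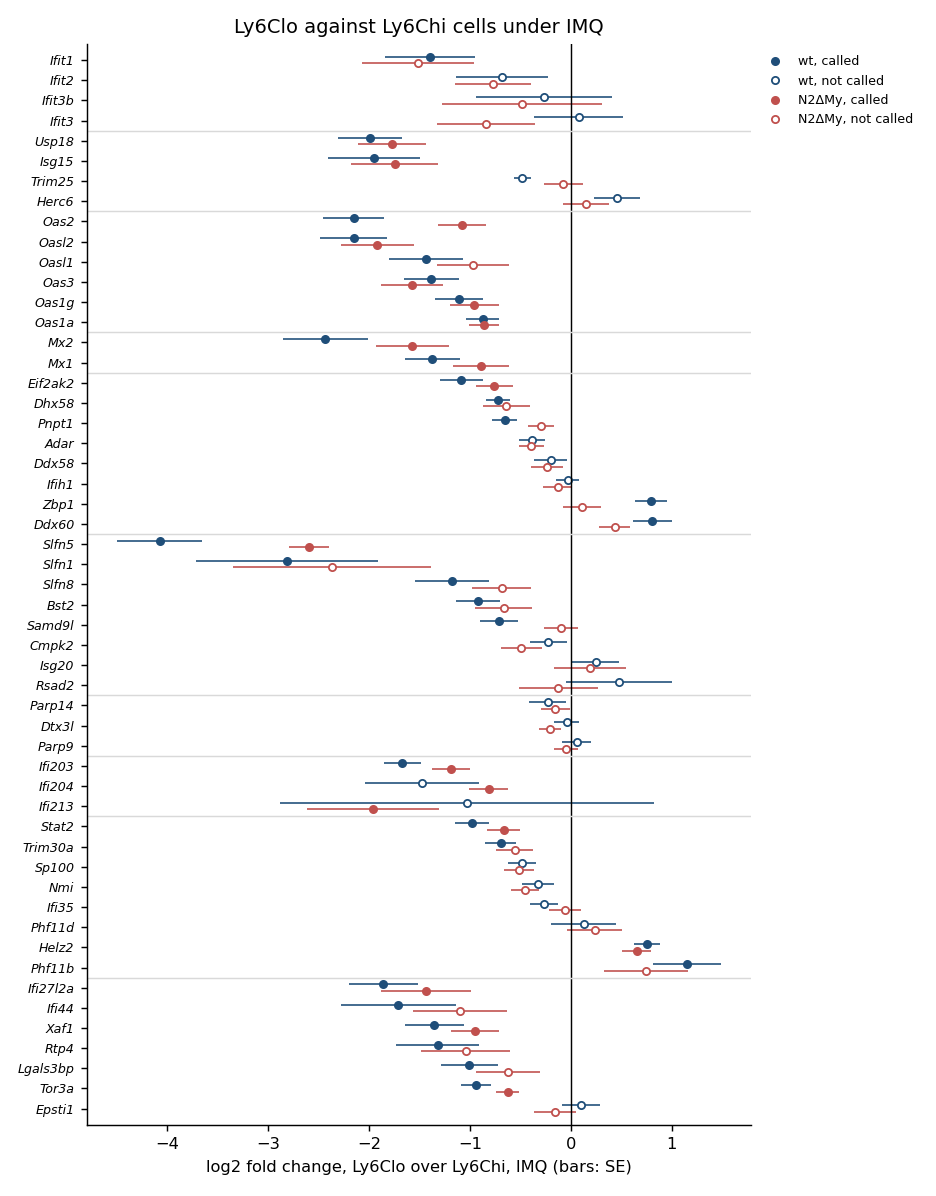
Log2 fold change, Ly6Clo over Ly6Chi, of the 53 tested interferon-stimulated genes in IMQ mice of wt (blue) and N2ΔMy genotype (red), ordered by role group. Bars are the standard error of the fit and filled points were called. The oligoadenylate synthetase and Mx genes lie below 0 in both genotypes, Slfn5 lies at -4.08 and -2.60, and Helz2 lies above 0 in both.

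Upstream genes differed between the subsets as well. Irf9 was lower in Ly6Clo cells of both genotypes (-0.65, SE 0.15, in wt and -0.63, SE 0.12, in N2ΔMy mice). In wt mice Irf9 was at 1555, 1902, 1666 and 1517 in Ly6Chi and at 1046, 1362, 1071 and 808 in Ly6Clo libraries, without overlap. Irf8 (-0.62 and -0.88) and the kinase Tyk2 (-1.06 and -0.86) were lower and Jak2 higher (0.70 and 0.66). Irf7 was not called in wt (-0.14, SE 0.24) or in N2ΔMy mice (-0.36, SE 0.27). Socs3 was higher in Ly6Clo cells, at 5197, 4676, 4997 and 5441 against 2010, 2419, 1912 and 3056 in wt mice (1.13, SE 0.14), and by 0.77 in N2ΔMy mice. Of the 10 NF-kappaB feedback and cytokine genes, Il1b (3.77 and 3.02), Tnf (1.79 and 1.22) and Nfkbiz (1.77 and 1.60) were higher in both genotypes, Tnfaip3 was higher (0.85) and Icam1 lower (-0.76) in wt mice. The TLR7 transport protein gene Unc93b1 was lower (-0.75) and the phosphatase gene Ptpn6 higher (0.63) in wt mice. Of the 11 genes associated with interferon gamma, 6 were lower in wt (Cxcl10, Gbp3, Gbp7, Irgm1, Iigp1 and Igtp) and 3 in N2ΔMy mice (Gbp3, Gbp5 and Gbp7), and none was called higher. Cxcl10 was near the floor in both subsets, at means of 14.5 in wt Ly6Chi and 1.25 in wt Ly6Clo libraries. With the replicate number in the model, Gbp4 (0.98, adjusted p = 0.0103) and Ikbke (0.62, adjusted p = 7.8e-05) were called higher and Ciita (-1.62, adjusted p = 0.000233) lower in wt mice.

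The last comparison asked how loss of Notch2 affected the genes in Ly6Clo monocytes of IMQ mice. Of the 53 members 1 was called higher and 1 lower in N2ΔMy cells, against 3.12% and 1.67% of all genes, and the median log2 fold change was 0.04. Zbp1 was at 3003, 2851, 3670 and 3224 in wt and at 1662, 1598, 2210 and 1524 in N2ΔMy libraries, so that the groups did not overlap and N2ΔMy cells were lower by 0.88 on the log2 scale (log2 fold change -0.88, SE 0.13, adjusted p = 0.00298). The Zbp1 call was lost without the filter on low values (adjusted p = 0.0519) and in the second series of library numbers alone (adjusted p = 0.0512). Samd9l, a cytosolic protein that restrains translation in infected cells, was at 644, 1054, 991 and 785 in wt and at 1061, 1554, 1782 and 1379 in N2ΔMy libraries (0.73, SE 0.19, adjusted p = 0.0445). The Samd9l call was lost without N2ΔMy replicate 2, 3 or 4, or wt replicate 1 or 4 (log2 fold change between 0.60 and 0.75, adjusted p between 0.0797 and 0.119). With the replicate number in the model, Slfn5 and Oas2 were also called higher, which gave 3 members higher and 1 lower, against 4.92% and 3.45% of all genes. Slfn5 was at 139, 175, 150 and 40 in wt and at 268, 302, 423 and 246 in N2ΔMy libraries (1.45, SE 0.41, adjusted p = 0.0674, and 0.00337 with the replicate number). Oas2 was at 172, 338, 325 and 160 in wt and at 382, 321, 678 and 339 in N2ΔMy libraries, which overlap (0.80, SE 0.31, adjusted p = 0.176, and 0.016 with the replicate number).

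Whether the genotype effect differed between Ly6Clo and Ly6Chi cells was tested directly. Without the replicate number 0 members were called, against 1.03% of all genes, and 5 members had an unadjusted p under 0.05, against 8.33% of all genes. With it 4 were called, against 2.41% of all genes, namely Slfn5 (difference of log2 fold changes 1.48), Oas2 (1.07), Samd9l (0.62) and Zbp1 (-0.68). N2ΔMy Ly6Clo libraries also differed in cell markers. Their 7 Ly6Chi markers summed to between 36921 and 69749, against between 4006 and 8122 in wt Ly6Clo libraries, their 9 Ly6Clo markers to between 49077 and 61458, against between 88891 and 107439, and their 8 macrophage markers to between 11011 and 14724, against between 4690 and 6688. Samd9l, Slfn5 and Oas2 were higher in Ly6Chi than in Ly6Clo cells of wt mice, and Zbp1 was lower. The part of these cells in the 4 differences was not tested. Of the pathway genes, Tlr7 (-0.71, SE 0.13, adjusted p = 0.0108) and Socs3 (-0.80, SE 0.09, adjusted p = 0.000437) were lower in N2ΔMy Ly6Clo cells, and Unc93b1 (0.64) and Gbp3 (1.25) were higher. With the replicate number in the model, Ciita (2.45, adjusted p = 0.00956) was also called higher, and Tnf (-0.95, adjusted p = 0.00667) and Gbp5 (-0.78, adjusted p = 0.0192) lower, and Gbp3 was called for the difference between the subsets (0.94, adjusted p = 0.00852). Tlr7 was at 2703, 3302, 3496 and 3887 in wt and at 1736, 2029, 1949 and 2455 in N2ΔMy libraries, without overlap.

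The relative spread of the members between replicates was wider after IMQ than after Sham, where their values were higher. It was not computed for all genes, so that it cannot be called particular to the members. The median coefficient of variation over the members was 11.2% in wt and 15.8% in N2ΔMy Sham libraries, 29.5% and 26.9% in IMQ Ly6Chi libraries, and 21.9% and 27.9% in IMQ Ly6Clo libraries. In some groups many members were high in the same library. In N2ΔMy IMQ Ly6Chi cells 43 of the 53 had their highest value in replicate 3, as did 37 in N2ΔMy IMQ Ly6Clo cells, where the share of all genes was 25.2% and 26.8%. In wt IMQ Ly6Chi cells replicates 2 and 3 held the highest value of 30 and 23 members, against 22.4% and 21.3% of all genes, and replicates 1 and 4 the lowest of 29 and 23, against 29.4% and 26.0%. In wt Sham cells 21, 8, 10 and 14 members were highest in replicates 1 to 4, and in wt Ly6Clo cells 6, 20, 21 and 6, so that no single library held most of them. In N2ΔMy Sham cells 27 members were highest in replicate 4, against 25.9% of all genes, and 33 lowest in replicate 3, against 27.5% of all genes. Lgals3bp, a secreted glycoprotein, was at 561, 1257, 1593 and 951 in wt and at 720, 855, 2231 and 1034 in N2ΔMy IMQ Ly6Chi libraries, and Irf7 at 1186, 2461, 2411 and 1274 and at 1049, 1253, 2707 and 1464 in the same libraries. In both, replicate 3 was high in both genotypes and replicate 1 was low.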

How the data were processed

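RNA of sorted monocytes was isolated with the RNeasy micro kit and made into libraries with a stranded total RNA kit for picogram input, sequenced as single reads. The authors trimmed and aligned reads with nf-core/rnaseq (Trim Galore 0.4.4, STAR 2.5.3a per the submitters' processing notes) to GRCm38.p6 with the GENCODE M17 annotation. The strand setting of the counting is not given in the sources used here. The deposited table holds DESeq2-normalised counts that were rounded to whole numbers, so each value is a score and not a raw count. Its columns of the authors' own comparisons, with log2 fold changes, standard errors, test statistics and p-values, were not used.

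The 11230 of 53715 genes that reached 50 in 1 or more of the 24 libraries were fitted (25137 genes were at 0 in every library) with limma 3.58.1 in R 4.3.3, with a trend, on log2(value + 1). Fold changes are therefore on the log2(value + 1) scale, which understates changes of low genes. Each comparison used its 8 libraries and each interaction 16, and p-values were two-sided and adjusted over all genes tested by Benjamini-Hochberg. A call needs an adjusted p up to 0.05 together with a log2 fold change of 0.6 or more in size. The scripts were tested on simulated data. The members and lists were chosen with earlier results of these data known. Any of the 54 members may be named. Values of every library come first for the 6 called members with the largest log2 fold change in size in each direction of each comparison and for the member with the highest mean over all libraries in each role group. The pathway lists are named by their called genes and by Irf9, Irf7, Ifnar1, Ifnar2, Tlr7 and Ifnb1, and by those whose call the replicate number changed, named after their values were seen. Their other genes enter the counts only, and 1 listed gene was left out of all counts and is not reported here. Read totals were inferred from the steps between low values and ranged from 9521379 to 19759572 with a median of 14975793, and the precision of low genes is limited by these totals.

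Replicate numbers come from the titles and fall into 2 series of library numbers (replicates 1 and 2, and 3 and 4), which the labels do not explain. Deviations of same-numbered libraries from their group means correlated in every comparison, with the lowest correlation at 0.16 and means between 0.349 and 0.519, and between -0.0114 and 0.244 within the series. For IMQ against Sham the means within the series were 0.0113 in wt and -0.0114 in N2ΔMy cells, so that the correlation there went with the series. The numbers are therefore not known to pair the libraries. Fits with the replicate number as a block, which also takes up the series, were run beside the others. Further alternatives varied the pseudocount, the filter, the scaling, the variance model, the libraries in the fit and the minimum fold, and left out each library or each series in turn.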

Additional observations from a re-analysis of the deposited data

Results flagged for a closer look

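Among 168 groups of 4 values, those of 27 named members and of the mean over the members, 8 had 1 library apart from the other 3 by Dixon's ratio, where chance gives about 1 in 20. The values apart were low in N2ΔMy Sham Ly6Chi replicate 3 for Oasl2 (2710) and Mx2 (547), in wt Sham Ly6Chi replicate 3 for Rsad2 (754) and in wt Sham Ly6Chi replicate 2 for Ifi213 (606). They were also low in N2ΔMy IMQ Ly6Chi replicate 4 for Adar (1825) and in wt IMQ Ly6Clo replicate 4 for Slfn5 (40) and Parp14 (2118). In N2ΔMy Sham Ly6Chi replicate 4 the value of Rtp4 (1363) was high.

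The effect of genotype differed between Ly6Clo and Ly6Chi cells of IMQ mice for 4 members in the fit with the replicate number (limma, interaction term, 16 libraries), against 2.41% of all genes. The difference of the log2 fold changes was 1.48 for Slfn5, 1.07 for Oas2, 0.62 for Samd9l and -0.68 for Zbp1. Without the replicate number none of these 4 differences was called.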

How the results depend on the processing

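The called members kept their sign under every alternative, 43 of 43 in wt and 45 of 45 in N2ΔMy cells between IMQ and Sham, 32 of 32 and 19 of 19 between Ly6Clo and Ly6Chi, and 2 of 2 between genotypes in Ly6Clo cells. Over all 53 tested members, those not called included, 51 kept their sign between IMQ and Sham in each genotype, 44 in wt and 42 in N2ΔMy cells between Ly6Clo and Ly6Chi, and 33 between genotypes in Ly6Clo cells. Counts of calls moved by over 1.5 times as follows. Of the alternatives, only the replicate block has its shares of all genes given above, so that the other counts do not set members apart from all genes. Without a filter on low values, 21 members were called between Ly6Clo and Ly6Chi in wt, 5 in N2ΔMy and 0 between genotypes in Ly6Clo cells (Zbp1 adjusted p = 0.0519). In the second series of library numbers alone these counts were 21 in wt and 0 between genotypes (Zbp1 adjusted p = 0.0512), with fewer libraries. With the replicate block, 31 were called between Ly6Clo and Ly6Chi in N2ΔMy cells, 4 between genotypes in Ly6Clo cells and 4 for genotype by subset, and no other count moved by over 1.5 times. Upper quartile scaling and limma without the trend each left 1 call between genotypes in Ly6Clo cells. Apart from the filter and the series, the cause was not tested. Leaving out 1 library at a time gave 42 to 46 calls between IMQ and Sham in either genotype, 25 to 32 and 15 to 23 between Ly6Clo and Ly6Chi in wt and N2ΔMy, 1 to 2 between genotypes in Ly6Clo cells and 0 in the other comparisons. Of the single members named, 544 values kept their call under an alternative and 45 lost it.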
